A study of Mus musculus with 23 samples.

Results

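The line by drug interaction asks whether methamphetamine moved a transcript differently in mice selected for a high response to the drug than in mice selected for a low response. For each gene it is the log2 difference between methamphetamine and saline in HMACT minus the same difference in LMACT. A value above 0 means that the difference was higher in HMACT, and a value below 0 that it was lower there. It was computed for 5308 of 8251 named genes, those with a log2 value over 2.3, just above the lowest value of the arrays, on at least 12 of 23 arrays. Of these genes 5091 were above 2.3 on every array. No gene lay just inside this limit, on 12 arrays, and 3 lay just outside it, on 11 arrays (Abcb1a, Bod1l and Folh1).

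A stock made from C57BL/6J x DBA/2J gave both lines, which were selected for high (HMACT) and low (LMACT) acute response to methamphetamine. Methamphetamine is a psychostimulant that releases dopamine and other monoamines, and the nucleus accumbens is the ventral striatal region whose spiny projection neurons receive a dense dopamine input. Mice received saline (dose 0) or 2 mg/kg methamphetamine and were killed 1 hour later. Each array measured a 4-way tissue pool from the accumbens, so no value belongs to a single animal, and the labels do not say how animals were divided among pools. There were 6 pools of HMACT after saline, with mean ages of 77.25 to 154 days (median 112), and 6 of HMACT after methamphetamine, with 77.25 to 150 days (median 114.75). There were 6 pools of LMACT after saline, with 61.5 to 127.5 days (median 67.125), and 5 of LMACT after methamphetamine, with 60 to 114.75 days (median 68.75). The labels name no transgene or deletion for any group.

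Dopamine released in the accumbens acts on receptors coupled to G proteins, which set cyclic AMP and MAP kinase signalling in the projection neurons. Within an hour this signalling reaches the nucleus, where immediate early genes such as Fos and Egr1 are transcribed first. Stress hormones released by an injection and by the drug act on the same cells through the glucocorticoid receptor.

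The arrays differed in ways that the groups do not explain. Within groups, 62.1% of the residual variance of the 5308 genes lay along a single axis, the first principal component. On this axis 4 arrays stood apart, with scores of 41.9 to 65.0 against -22.7 to 23.9 for the other 19: replicate 4 of LMACT methamphetamine, replicate 3 of HMACT methamphetamine and replicates 3 and 5 of HMACT saline. No LMACT saline array was among them. The labels name 4 chip lots, the largest of which held 15 arrays. LMACT methamphetamine replicate 4 was the only array of its lot. Mean projected scores were 16.2 for HMACT saline, 5.8 for HMACT methamphetamine, -19.8 for LMACT saline and -2.2 for LMACT methamphetamine. The projected score's own interaction was -28.1 (SE 23.6). The log2 gap between the 3′ and 5′ control probe sets, a sign of RNA or labelling quality, averaged 2.10 and 2.35 in HMACT and 2.63 and 2.87 in LMACT, and was highest, at 4.57, on LMACT methamphetamine replicate 5. The striatal genes Penk, Tac1, Pdyn, Pde1b and Drd2 were above 2.3 on all 23 arrays, while the probe sets of Rgs9, Drd3, Chrm4, Oprm1 and Cnr1 were at the floor. Of 11 cortical and hippocampal excitatory neuron genes on the array, 6 were above the floor, among them Tbr1 and Nrgn. Camk2a, Neurod1 and Neurod6 were not. Of 9 choroid plexus and ependymal genes on the array, 6 were above it, among them Igf2 and Cd24a, while Ttr was at the floor. In pooled tissue, fewer cells of a type and less RNA per cell cannot be told apart.

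No gene passed the test of the interaction. By limma's moderated test with Benjamini-Hochberg adjustment over 5308 genes, 0 had an adjusted p under 0.05 (0%), and the smallest adjusted p was 0.75. Without adjustment, 206 genes (3.88%) had a p under 0.05, of which 53 had a higher difference in HMACT (0.998% of the genes tested) and 153 a lower one (2.88%). When each array was centred on its median over the 5308 genes, 120 genes under 0.05 were higher and 95 lower, so the lower share of 74.3% went to 44.2%. Without the 4 arrays that stood apart, 97 genes under 0.05 were higher and 110 lower. The excess of lower values thus moved with the scaling and with these arrays. The genes named in the rest of the text did not pass the test, and their values are a description.

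The precision sets what this means. The median standard error of an interaction was 0.299 log2 units, with 0.0662 and 0.736 at the 5th and 95th percentile. For 3047 genes (57.4%) the unadjusted 95% interval lay within 1 log2 unit on either side of 0, and for 1179 (22.2%) within 0.5. For the rest the interval reached or passed 1 log2 unit on at least 1 side. The 5308 genes include 11 with the same value on all arrays and 74 with a range under 0.1. They also include 1330 with a mean under 4, toward the floor. Where a probe set hardly varied, a narrow interval does not show that the transcript lacked a large interaction. The shares within 1 and 0.5 were not computed without such genes. Of all 5308 genes 2343 (44.1%) were above 0, the share against which the counts of list members above 0 can be read. The median interaction over all genes was -0.03 and the median size 0.24, and 237 genes had a size over 1.

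The shape of the response can be described for the 206 genes at an unadjusted p under 0.05, without support from a test. The methamphetamine difference was below 0 in HMACT and above 0 in LMACT for 146 of them (70.9%, against 35.9% of all genes tested). It was above 0 in HMACT and below 0 in LMACT for 51 (24.8%, against 27.4%). It had 1 sign in both lines for the other 9: 5 above 0 and 4 below 0. A large interaction favours opposite signs, so these shares follow in part from the choice of genes. The larger of the 2 differences was in LMACT for 164 of the 206 genes (79.6%) and for 3096 of all 5308 (58.3%). For 189 of the 206 (91.7%, against 37.0% of all) the order of the lines turned over: the line that was higher after saline was lower after methamphetamine. The interaction is also the line difference after methamphetamine minus that after saline. A large interaction therefore favours a turned order, and this share too follows in part from the choice of genes.

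**Figure D1:**
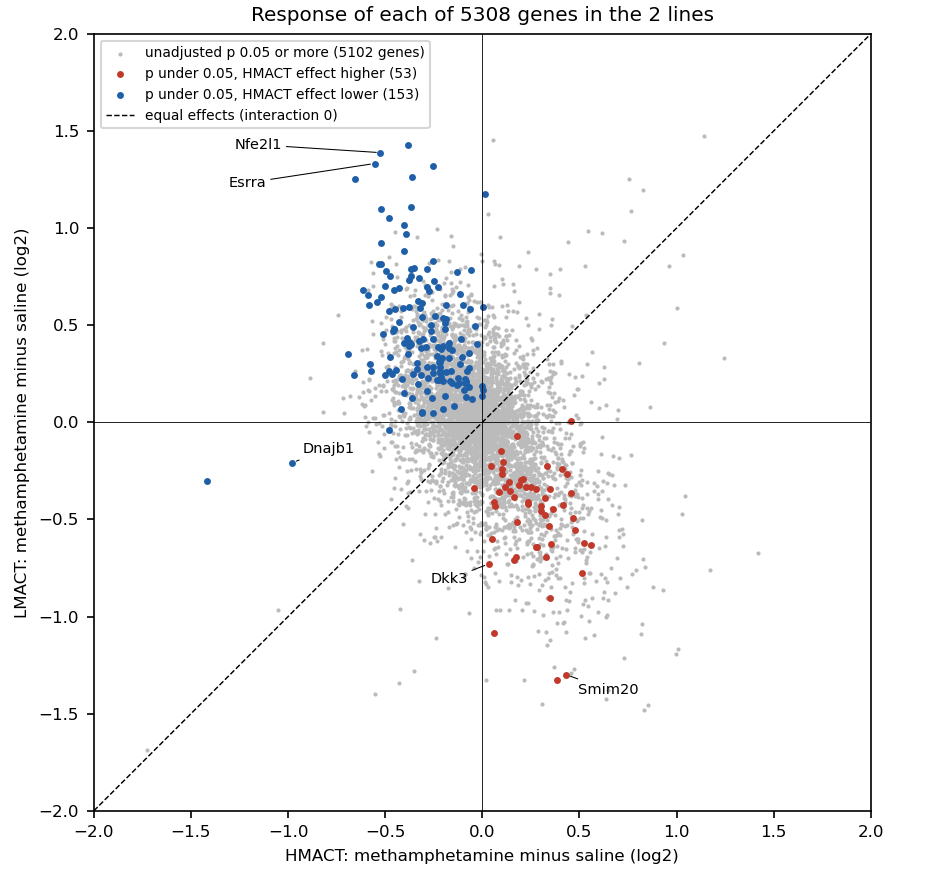
Each point is a gene, with the methamphetamine minus saline difference (log2) in HMACT on the horizontal axis and in LMACT on the vertical axis. The dashed line marks equal differences; the 153 blue points (unadjusted p under 0.05, lower in HMACT) lie above it and the 53 red points (higher in HMACT) below it, mostly in the quadrants of opposite sign, and no gene passed the adjusted test.

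Among genes with a lower difference in HMACT, Cramp1l had the smallest p-value. It encodes a nuclear protein related to the fly chromatin protein cramped. Its log2 values ran from 5.96 to 6.36 (median 6.12) in HMACT after saline and from 5.66 to 6.30 (median 5.89) after methamphetamine. In LMACT they ran from 5.60 to 6.02 (median 5.88) after saline and were 6.15, 5.94, 6.48, 6.56 and 6.07 after methamphetamine, listed here and for the genes that follow from replicate 2 to replicate 6. All 5 LMACT methamphetamine pools were above their line's saline mean, and 4 of 6 in HMACT were below theirs; the saline and methamphetamine ranges overlapped in both lines. The interaction was -0.59 (SE 0.177; interval -0.96 to -0.23), with an unadjusted p of 0.00306 and an adjusted p of 0.75 in limma. Its residuals hardly followed the array axis (r = -0.11 over 23 arrays, which share lots and ages), and without the 4 arrays the value was -0.58.

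Nudt3 encodes a Nudix hydrolase that cleaves diphosphoinositol polyphosphates. It ran from 12.21 to 12.87 in HMACT after saline and from 11.70 to 12.78 after methamphetamine, with means of 12.46 and 12.15. LMACT values were 11.39 to 12.51 (median 11.97) after saline and 12.44, 12.54, 13.07, 12.47 and 12.29 after the drug. HMACT was the higher line by 0.51 after saline and the lower by 0.41 after methamphetamine, with ranges that overlapped in each line. The interaction was -0.92 (SE 0.280). It moved to -0.45 in the lot of 15 arrays and to -1.37 in pools under 100 days of mean age. The residual correlation of Nudt3 with the array axis was 0.64, and with that axis as a covariate the value was -0.70.

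Klf3, a zinc finger repressor of the Kruppel-like family, had HMACT means of 5.88 ± 0.24 (SD, n = 6) for saline and 5.65 ± 0.15 (SD, n = 6) for methamphetamine. The LMACT means were 5.77 ± 0.13 (SD, n = 6) and 5.99 ± 0.10 (SD, n = 5). All 6 HMACT methamphetamine pools were below their saline mean and all 5 in LMACT above theirs. Within each line the ranges overlapped. The interaction was -0.45 (SE 0.140). A second Klf3 probe set, with a mean of 2.99, close to the floor, gave -0.17 (SE 0.116), the same direction at a smaller size.

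The largest sizes in this group belonged to a pair of transcription factor genes. Esrra encodes an orphan nuclear receptor that drives mitochondrial genes. Its HMACT values were 7.08 to 9.07 (median 8.13) after saline and 6.74 to 8.94 (median 7.21) after methamphetamine. Its LMACT values ran from 6.57 to 7.25 (median 6.88) after saline and were 8.74, 6.96, 9.30, 7.87 and 8.29 after methamphetamine. The LMACT saline pools were a narrow low group, and 1 of the 5 methamphetamine pools lay among them. Nfe2l1, a bZIP factor that drives proteasome genes, had 9.87 to 11.33 (median 10.48) and 9.20 to 11.38 (median 9.67) in HMACT. In LMACT it had 8.82 to 10.87 (median 9.62) after saline and 10.94, 10.92, 11.87, 10.54 and 11.36 after methamphetamine, which overlapped the saline range at 1 pool. The interactions were -1.89 (SE 0.590) for Esrra and -1.91 (SE 0.606) for Nfe2l1. Both followed the array axis within groups (r = 0.82 and 0.58), and without the 4 arrays they were -1.48 and -1.74. In the lot of 15 arrays Nfe2l1 was at -1.15.

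Nsmce4a, a subunit of the SMC5/6 complex of DNA repair, was the gene of this group whose LMACT ranges did not overlap. After saline LMACT ran from 4.46 to 4.92, and after methamphetamine it was 5.25, 5.07, 5.77, 5.44 and 5.13. In HMACT it ran from 4.72 to 6.45 and from 4.60 to 5.69. The interaction was -1.03 (SE 0.327), the residual correlation with the array axis was 0.87, and with that axis as a covariate the value was -0.69. Pagr1a, a component of a histone H3K4 methyltransferase complex, was at -1.35 (SE 0.422). Its means were 5.47 ± 0.63 (SD, n = 6) and 4.94 ± 0.50 (SD, n = 6) in HMACT and 4.57 ± 0.47 (SD, n = 6) and 5.38 ± 0.44 (SD, n = 5) in LMACT. In the lot of 15 arrays Pagr1a was at -0.87, and its residual correlation with the array axis was 0.76.

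The remaining genes of this direction were smaller in size. Stoml2, a scaffold of the mitochondrial inner membrane, was at -0.81 (SE 0.262) and, with array weights, which count arrays that stray from their group for less, at -0.51. Its residual correlation with the array axis was 0.70. Ppa1, the cytosolic pyrophosphatase, was at -0.54 (SE 0.176). Cwc15, a spliceosome component, was at -0.45 (SE 0.146). All 6 HMACT methamphetamine pools were below their saline mean for Ppa1 and Cwc15, and all 5 LMACT pools above theirs. Cwc15 was at a repeated value of 4.06, within 0.01, on 9 of 23 arrays.

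Among genes with a higher difference in HMACT, Atpif1 had the smallest p-value. It encodes the inhibitory factor that stops the mitochondrial ATP synthase from running in reverse. In HMACT it ran from 12.05 to 12.88 (median 12.52) after saline and from 12.06 to 12.91 (median 12.81) after methamphetamine. LMACT values ran from 12.61 to 13.01 (median 12.76) after saline and were 11.68, 12.44, 11.60, 12.44 and 12.35 after methamphetamine. The LMACT methamphetamine pools all lay below the LMACT saline pools, and the HMACT ranges overlapped. The interaction was 0.87 (SE 0.265; interval 0.31 to 1.42), with an unadjusted p of 0.00376 and an adjusted p of 0.75 in limma. It was 0.73 without the 4 arrays and 0.47 in the lot of 15. The residual correlation of Atpif1 with the array axis was -0.69, and with that axis as a covariate the value was 0.64.

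Smim20 encodes a small mitochondrial membrane protein that takes part in cytochrome c oxidase assembly and is also the precursor of the peptide phoenixin. It ran from 6.87 to 9.50 (median 8.87) and from 8.53 to 9.41 (median 8.96) in HMACT. In LMACT it ran from 7.78 to 9.14 (median 8.54) after saline and was 7.71, 7.84, 7.39, 6.05 and 7.37 after methamphetamine. All 5 of these were below the LMACT saline mean, and 1 of them fell inside the saline range. The interaction was 1.73 (SE 0.554), the largest of this direction among the genes chosen by p-value, and its residuals did not follow the array axis (r = 0.12). With array weights it was 1.05. The lowest value was that of LMACT methamphetamine replicate 5.

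Dkk3 is a secreted member of the Dickkopf family of Wnt regulators. Its HMACT values were 6.27 to 7.08 (median 6.47) and 5.90 to 6.94 (median 6.67). Its LMACT values were 6.04 to 6.88 (median 6.15) after saline and 5.88, 5.69, 5.19, 5.49 and 5.42 after methamphetamine, with no overlap. HMACT thus had a difference of 0.03 (SE 0.180), LMACT of -0.73 (SE 0.188), and the interaction was 0.76 (SE 0.260). It was 0.90 without the 4 arrays.

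Rps3, a protein of the small ribosomal subunit, had means of 13.04 ± 0.44 and 13.22 ± 0.09 in HMACT (SD, n = 6 each). Its LMACT means were 13.05 ± 0.17 (SD, n = 6) and 12.54 ± 0.39 (SD, n = 5). HMACT saline replicate 1, at 12.17, stood below the rest of its group; without it the interaction of 0.70 (SE 0.250) was 0.52. The other 6 genes had interactions between 0.31 and 0.65. They were St3gal6, a sialyltransferase (0.50, SE 0.182), and 1810009A15Rik (0.65, SE 0.240). Psmb7, a catalytic subunit of the proteasome core, was at 0.50 (SE 0.191), and Canx, the endoplasmic reticulum chaperone calnexin, at 0.45 (SE 0.173). Elovl2, an enzyme that lengthens polyunsaturated fatty acids, was at 0.31 (SE 0.121), and Cops5, the catalytic subunit of the COP9 signalosome, at 0.55 (SE 0.223). St3gal6, Canx and Elovl2 had group means of 2.45 to 3.31, close to the floor, and Elovl2 sat at 2.47 within 0.01 on 9 arrays. Cops5 was at 0.29 without the 4 arrays and at 0.19 with array weights. Residual correlations with the array axis were -0.77 for Canx and -0.70 for Cops5. In the lot of 15 Canx was at 0.26 and St3gal6 at 0.32.

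**Figure D2:**
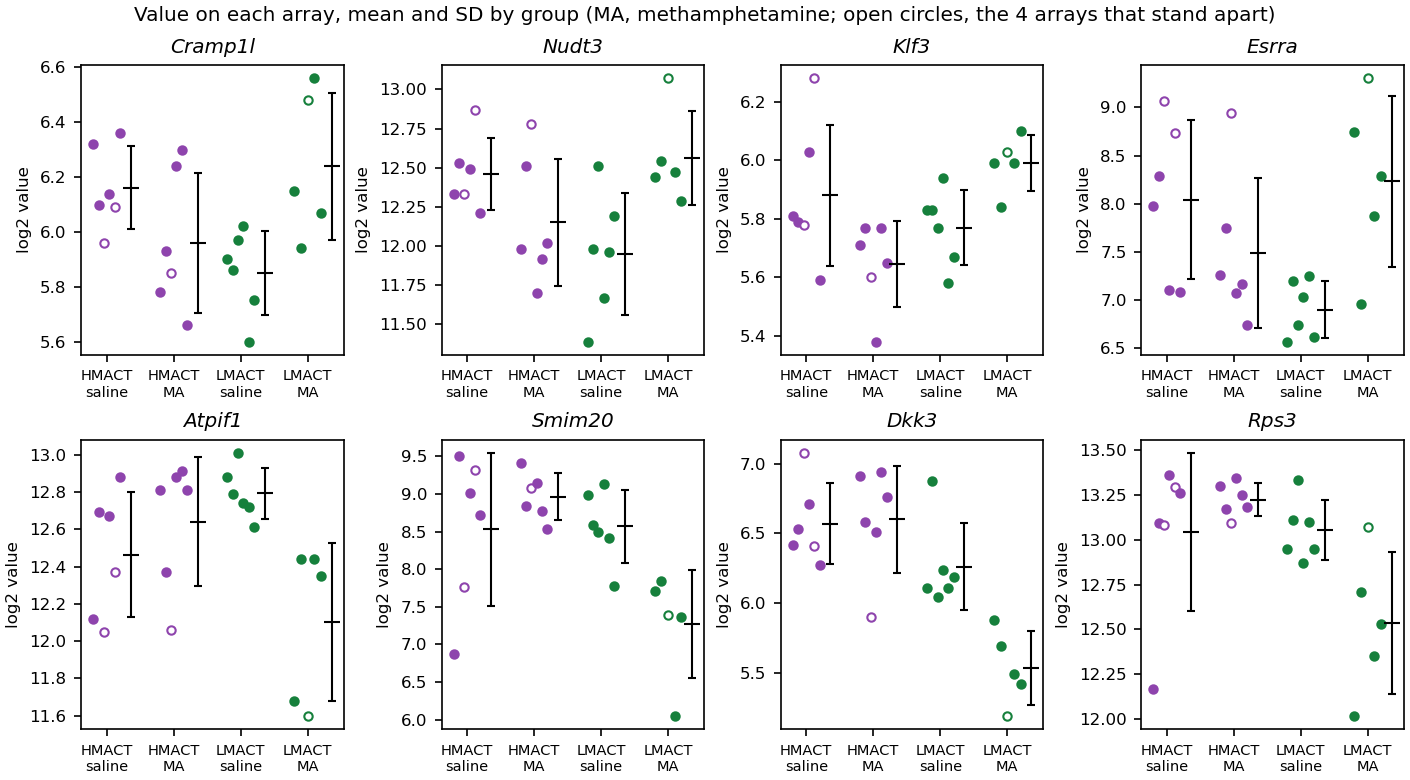
Log2 value of 8 genes on each array, by line and injection, with the group mean and SD beside the points; each panel has its own scale, and open circles are the 4 arrays that stand apart. The upper row has the genes with the smallest p-values among those lower in HMACT and the lower row those higher; in Atpif1 and Dkk3 the LMACT methamphetamine points lie below the LMACT saline points with no overlap.

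Immediate early genes are those that neurons transcribe first after a stimulus. The counts under 0.05 in this list and the lists that follow can be read against the 3.88% of all genes. Of 51 immediate early genes listed, 34 were above the floor, 0 passed the test and 2 had an unadjusted p under 0.05 (5.88%, against 3.88% of all genes), both lower in HMACT. The median interaction was -0.04, against -0.03 for all genes, and 16 of 34 were above 0 (47.1%, against 44.1% of all genes). Egr1, a zinc finger factor of the early response, ran from 9.82 to 10.56 (median 10.02) and 9.46 to 10.33 (median 10.09) in HMACT. LMACT pools ran from 9.25 to 10.30 (median 9.58) after saline and were at 10.01, 10.14, 10.68, 10.03 and 10.02 after methamphetamine. The LMACT methamphetamine pools lay near the HMACT ones, and the LMACT saline pools reached lower. The interaction was -0.67 (SE 0.292, unadjusted p = 0.0317 in limma), and it was -0.21 in the lot of 15 arrays. Plk3, an inducible Polo-like kinase, was at -0.34 (SE 0.154) with 12 of 23 arrays at 7.86 within 0.01. Fos, named outside the rule after its value was seen, was at 0.52 (SE 0.355), with a difference of 0.93 in HMACT and 0.41 in LMACT.

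Of 13 Kruppel-like and Sp factor genes above the floor, Klf3 was the single member under 0.05, and the median was 0.08. Of 23 glucocorticoid responsive genes, 1 was under 0.05 and the median was -0.24, with 10 of 23 above 0; the median was 0.03 without the 4 arrays. Sgk1, a kinase induced by glucocorticoids, ran from 9.01 to 9.71 (median 9.38) and from 9.60 to 10.30 (median 9.78) in HMACT. LMACT pools ran from 9.89 to 10.29 (median 10.11) after saline and were at 10.10, 10.31, 10.33, 9.45 and 10.32 after methamphetamine. LMACT was the higher line after saline by 0.73, and the methamphetamine differences were 0.46 (SE 0.146) in HMACT and 0.01 (SE 0.154) in LMACT. The interaction was 0.45 (SE 0.212, unadjusted p = 0.0472 in limma), and it was 0.29 without LMACT methamphetamine replicate 5 and 0.19 with array weights.

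Chaperone and antioxidant genes gave a mixed picture. Of 40 heat shock and chaperone genes, 1 was higher and 2 lower at an unadjusted p under 0.05, with a median of 0.04. Dnajb1, an inducible HSP40 co-chaperone, ran from 6.66 to 8.29 (median 7.57) and from 6.14 to 6.98 (median 6.41) in HMACT. In LMACT it ran from 5.52 to 6.67 (median 6.39) after saline and was 6.32, 5.82, 6.50, 5.72 and 6.03 after methamphetamine. The HMACT saline pools reached highest; their lower end overlapped the HMACT methamphetamine and LMACT saline ranges and lay above every LMACT methamphetamine pool. HMACT had a difference of -0.98 (SE 0.242), LMACT of -0.21 (SE 0.254), and the interaction was -0.77 (SE 0.350), with -0.49 in the lot of 15 arrays. Pdia4, a disulfide isomerase, was at -0.56 (SE 0.269), at -0.34 without the 4 arrays and at -0.26 in the lot of 15. Its group means were 3.09 to 3.45, close to the floor, and its residual correlation with the array axis was 0.87. Canx was the member on the other side. Of 25 antioxidant genes, 8 were above 0 and the median was -0.09, which went to 0.01 without the 4 arrays. Nfe2l2, the factor NRF2 that drives antioxidant genes, had a value of 1.02 (SE 0.465). It ran from 3.04 to 5.09 and from 3.34 to 5.46 in HMACT, where the ranges overlapped. In LMACT it ran from 4.50 to 5.33 after saline and was 4.40, 4.28, 3.91, 4.17 and 4.32 after methamphetamine, without overlap. With the array axis as a covariate the Nfe2l2 value was 0.60.

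Genes of the dopamine synapse and of the striatal projection neurons gave no member under 0.05. Of 43 monoamine synthesis, transport and receptor genes listed, 11 were above the floor, with a median of -0.03. Maoa, which degrades monoamines, had the smallest p (-0.18, SE 0.130). Drd2, the dopamine D2 receptor gene, named outside the rule after its value was seen, was at -0.17 (SE 0.413), an error too large to bound it closely. Of 20 striatal projection neuron genes, 8 were above 0 and the median was -0.19, which went to 0.09 without the 4 arrays; Tac1, the substance P precursor gene, was at 0.39 (SE 0.220). Of 14 glutamate receptor and scaffold genes, 10 were below 0, with a median of -0.20. Pick1, a PDZ protein that controls surface AMPA receptors, was at -0.86 (SE 0.357), and its second probe set at -0.30 (SE 0.167). That second probe set had a mean of 2.81, close to the floor. Of 13 GABA synapse genes, 8 were above 0, with a median of 0.20 that went to 0.11 without the 4 arrays. The member under 0.05 there, Gabarapl1, an autophagy and receptor trafficking gene, was at -0.58 (SE 0.256), against the direction of the median, and at -0.25 in the lot of 15. Of 11 interneuron genes the median was -0.09, and Reln, a secreted matrix protein, was at 0.67 (SE 0.336).

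Signalling and excitability genes were described in the same way. Of 50 G protein, RGS and cyclic nucleotide genes, 1 was under 0.05 (2%, against 3.88% of all genes). It was Pde7a, a cyclic AMP phosphodiesterase, at 0.58 (SE 0.248) and at 0.30 without the 4 arrays. Of 39 MAP kinase pathway genes, 2 were under 0.05 (5.13%) and both lower in HMACT, with a list median of -0.03. Mapk14, the p38 alpha kinase, was at -0.74 (SE 0.318), and at -0.09 in the lot of 15 arrays. Mapk8ip3, a JNK scaffold that links vesicles to kinesin, was at -0.96 (SE 0.446), and at -0.41 without the 4 arrays. Of 30 ion channel genes, 0 were under 0.05, 9 were above 0 (30.0%, against 44.1% of all genes) and the median was -0.15; the smallest p was that of Kcnh2, a potassium channel (-0.82, SE 0.456). Of 47 synaptic vesicle and SNARE genes, 0 were under 0.05 and the median was -0.01. Stxbp3, a syntaxin-binding protein, had the smallest p of that list at 1.93 (SE 0.973). Of 15 circadian clock genes, 0 were under 0.05, and Per1, a clock repressor and early gene, was at -0.64 (SE 0.419).

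Csnk1e encodes casein kinase 1 epsilon, a clock kinase that also acts on the dopamine signalling protein DARPP-32 and has been studied in mice selected for methamphetamine response. Its log2 values ran from 7.89 to 9.37 (median 8.53) and from 8.08 to 8.53 (median 8.44) in HMACT. In LMACT they ran from 7.80 to 8.71 (median 8.31) after saline and were 8.13, 8.47, 8.53, 6.92 and 8.31 after methamphetamine. HMACT means were higher by 0.39 after saline and by 0.30 after methamphetamine, and all 4 groups overlapped. The interaction was -0.09 (SE 0.369, unadjusted p = 0.811, adjusted p = 0.933 in limma). Its interval, -0.86 to 0.68, leaves room for differences of either sign, and the sign turned in several settings, with 0.16 without the 4 arrays.

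Among genes of energy supply and protein turnover, the proteasome list had the most members under 0.05 of the 29 lists by count, but not by share. The share was higher in the choroid plexus and ependymal (16.7%), Nudix hydrolase (14.3%) and ATP synthase (11.1%) lists, with 1 member each. Of 9 genes of the ATP synthase and its regulators, 7 were above 0 and the median was 0.31, and Atpif1 was the single member under 0.05. The same median was 0.30 without the 4 arrays and 0.09 in the lot of 15. Atp5a1, the catalytic core's alpha subunit, was at 0.32 (SE 0.177) and Atp5d, a stalk subunit, at -0.58 (SE 0.411); both were named outside the rule after their values were seen. Of 49 respiratory chain genes, 0 were under 0.05 and the median was 0.02, with Ndufa9, a complex I subunit, at 0.64 (SE 0.334). Of 37 proteasome genes, 4 were under 0.05 (10.8%, against 3.88% of all genes), 2 in each direction. Psmc1 and Psmd5, an ATPase and an assembly chaperone of the regulatory particle, were at -0.50 (SE 0.170) and -0.49 (SE 0.187). Psmb7 and Psma6, subunits of the core, were at 0.50 and 0.34 (SE 0.146); with array weights they were at 0.28 and 0.05. In the lot of 15 Psmd5 was at -0.32. The list median was -0.08, and it was 0.01 without the 4 arrays, where Psmc1 was at -0.27. Of 25 cytosolic ribosomal protein genes, 2 were under 0.05, Rps3 and Rpl37a (0.93, SE 0.398), and the median was -0.04. Of 7 Nudix hydrolase genes, Nudt3 was the single member under 0.05 and the median was -0.27, which went to -0.13 without the 4 arrays.

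Of 44 chromatin regulator genes, 2 were under 0.05, Cramp1l and the histone deacetylase gene Hdac7 (-0.30, SE 0.139). The list median was -0.07. With array weights Hdac7 was at -0.19, and it was at 4.20 within 0.01 on 11 of 23 arrays. Of 42 actin and cytoskeleton regulators, 1 was under 0.05: Rac1, a small GTPase that shapes dendritic spines, at 0.55 (SE 0.255). With the array axis as a covariate the Rac1 value was 0.33. Its LMACT saline pools lay within 12.82 to 12.98 and its other groups spread from 11.73 to 12.86. The list median was -0.08.

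Markers of other cell types had 2 members under 0.05, 1 of 12 astrocyte and 1 of 6 choroid plexus and ependymal genes. Over all genes tested the share was 3.88%. The part of these cell types in the results above was not tested. For 10 oligodendrocyte, 10 microglial, 14 endothelial and pericyte and 2 blood markers above the floor, 0 were under 0.05, with medians of -0.11, -0.12, -0.13 and 0.05. The smallest p in each was that of Mag, a myelin glycoprotein gene (-1.26, SE 0.732), C1qa, a complement gene (-1.43, SE 0.904), Cldn5, a tight junction gene (-0.85, SE 0.540), and Hbb-b2, a beta globin gene (0.05, SE 0.457). Of 12 astrocyte markers 1 was under 0.05, Aldoc, the brain aldolase gene (-0.76, SE 0.367; -0.41 without the 4 arrays). The summed level of the astrocyte list (log2 of the sum of linear values) ran from 14.55 to 15.61 and 14.65 to 15.04 for the HMACT saline and methamphetamine pools. For the LMACT pools it ran from 14.72 to 14.95 and 14.75 to 15.27. Of 6 choroid plexus and ependymal markers 1 was under 0.05, Igfbp2, an insulin-like growth factor binding protein (-0.63, SE 0.295, and -0.40 without the 4 arrays). Igfbp2 had group means of 2.86 to 3.48, close to the floor, and a residual correlation with the array axis of 0.85. The summed level of that list was 9.58 to 10.48, 9.45 to 10.16, 9.92 to 10.33 and 9.71 to 10.04 in the same order of groups, with its defining gene Ttr at the floor. For endothelial and pericyte markers it was 9.36 to 10.68, 9.36 to 10.71, 9.27 to 9.62 and 9.46 to 10.73, so LMACT saline had the narrowest range. Of 6 cortical and hippocampal excitatory neuron genes 0 were under 0.05, with a median of -0.20, and Cux2, an upper-layer neuron gene, was at -0.21 (SE 0.150).

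**Figure D3:**
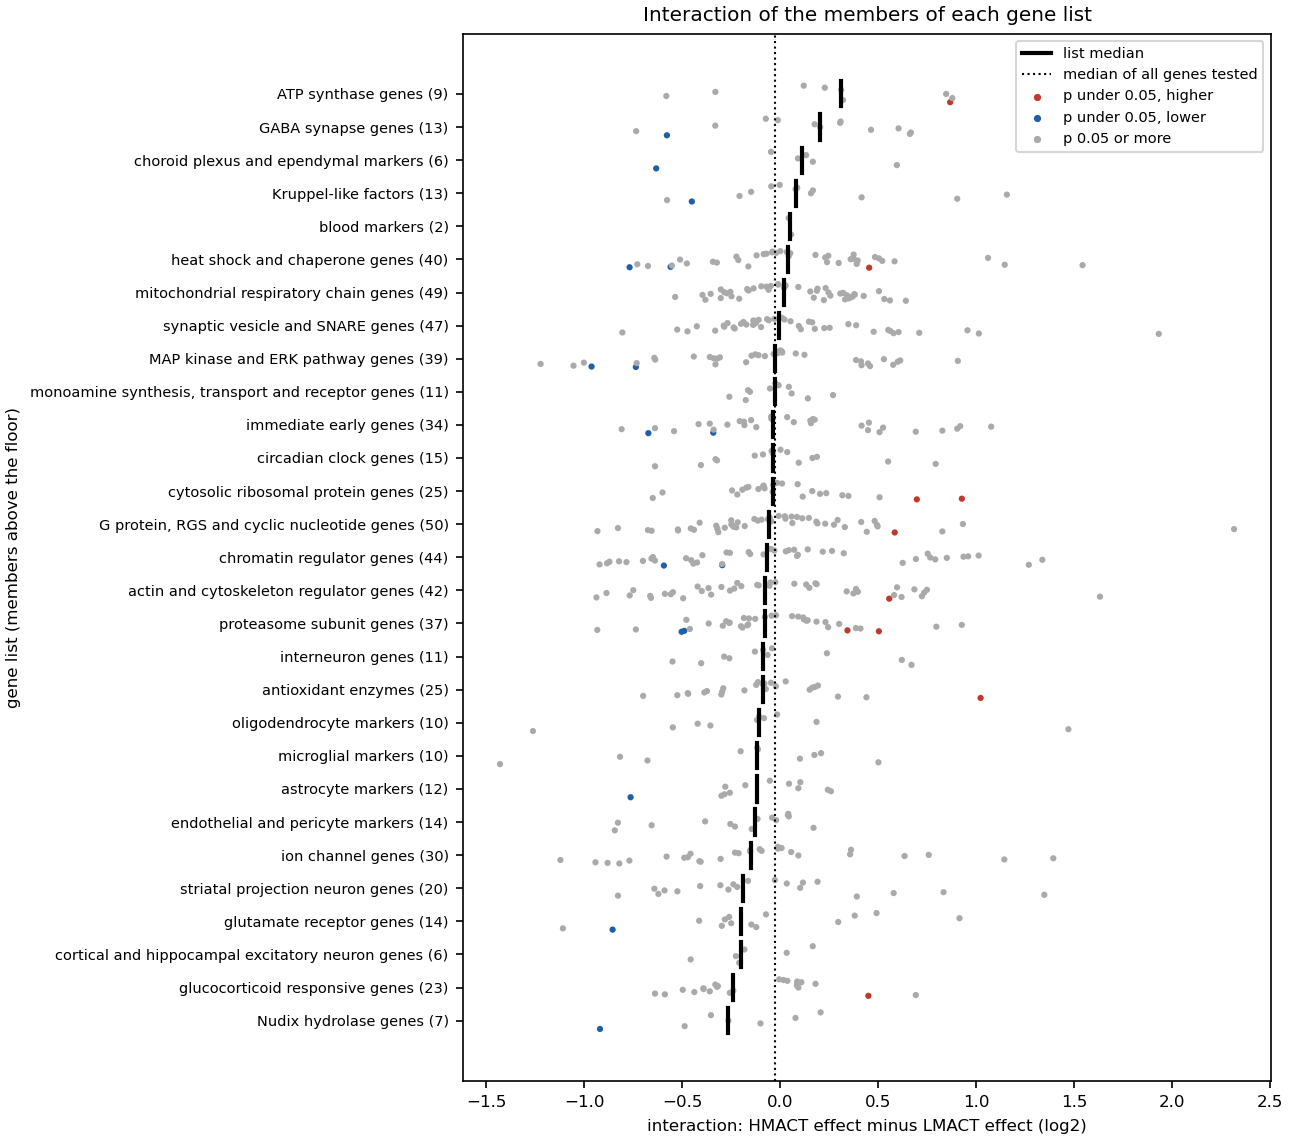
Interaction (log2, horizontal axis) of the members of 29 gene lists that were above the floor; black bars are list medians, the dotted line is the median of all genes tested, and colour marks an unadjusted p under 0.05. List medians ran from -0.27 for 7 Nudix hydrolase genes to 0.31 for 9 ATP synthase genes, and the members of every list of more than 2 genes lay on both sides of 0.

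Measurements of a gene by more than 1 probe set bear on how far single values can be read. Of the 206 genes, 34 had at least 1 further probe set above the floor, 37 in all. The second value had the same direction in 29 of 37, and 1 was itself under 0.05. Repeated values were another limit: 940 of 5308 genes (17.7%) had at least 12 arrays within 0.01 of a shared value, and 17 of the 206 (8.25%).

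The 20 genes chosen by p-value were compared under 4 other settings. All 20 had the same direction without the 4 arrays, with the array axis as a covariate, in the pools under 100 days and in the lot of 15 arrays, which held 4, 4, 4 and 3 arrays of the HMACT saline, HMACT methamphetamine, LMACT saline and LMACT methamphetamine groups. The second lot held 1 array of each group and the other lots lacked a group, so no spread could be had within them. At an unadjusted p under 0.05 there were 16 of the 20 without the 4 arrays, 20 with the axis, 16 under 100 days and 5 in the lot of 15. With array weights, which were not plotted, there were 17 of the 20, all in the same direction. As these genes were picked on most of the same arrays, a kept direction is a description and no further support.

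**Figure D4:**
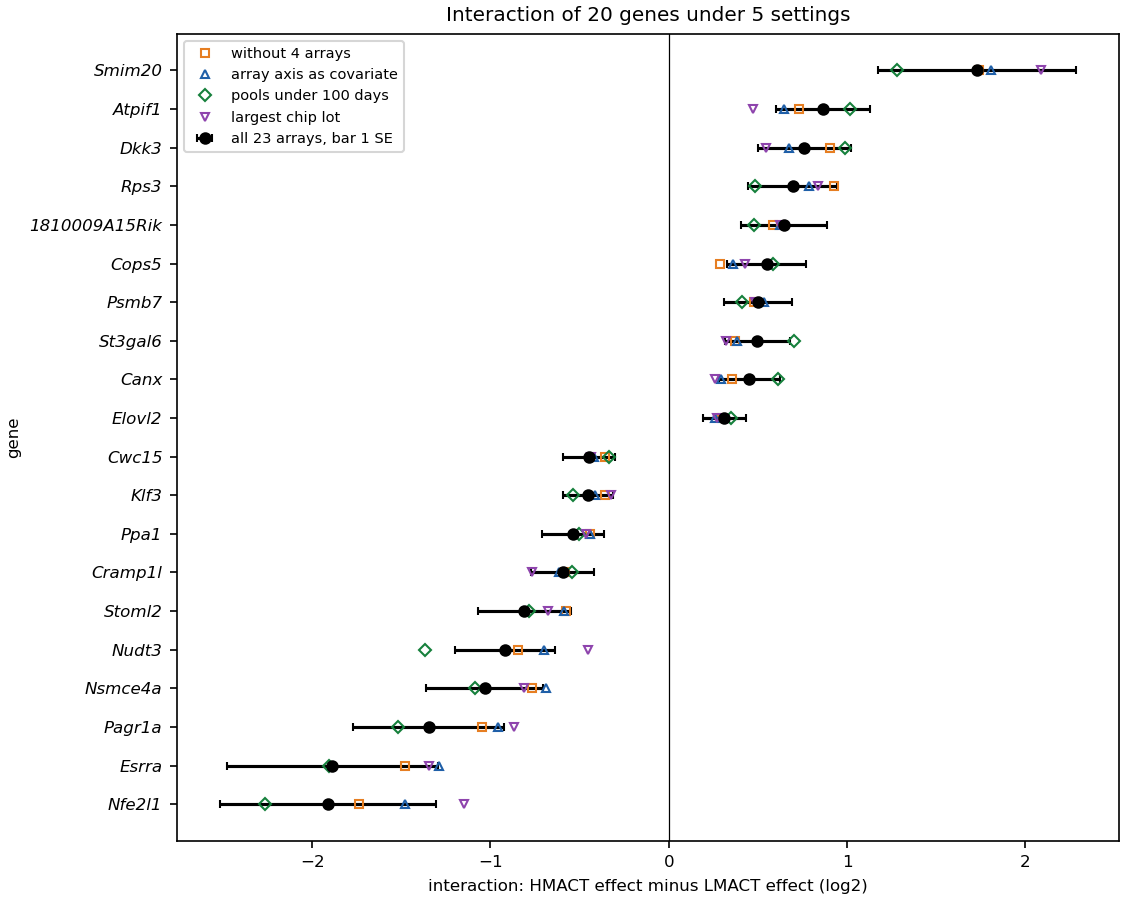
Interaction (log2) of the 20 genes with the smallest p-values, 10 in each direction, with all 23 arrays (black, bar 1 SE) and under 4 other settings. All markers of a gene lie on the same side of 0; the pools under 100 days move Nudt3 to -1.37 and the lot of 15 arrays moves it to -0.45.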

How the data were processed

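Tissue pools of mouse nucleus accumbens were measured on 23 Affymetrix arrays. The deposited log2 table has a value for each probe set on each array. The scale is not labelled, and log2 was taken from the range of 2.23 to 16.4. How the authors corrected background and normalized is not given in the sources used here. The submitters' processing notes list R 2.7.1. Of 12488 probe sets, 10833 had 1 gene in the platform annotation, and 10817 took current symbols from RefSeq (GRCm38.p6); 396 with several genes, 1193 not listed and 66 controls were left out. The probe set with the highest mean stood for a gene. Values up to 2.3, 44.2% of all, were treated as the floor.

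The interaction was tested two-sided with limma 3.58.1 in R 4.3.3 (lmFit, contrasts.fit, eBayes; 1 fit of 4 group means, no covariates; 5308 genes, Benjamini-Hochberg adjusted p under 0.05), and the scripts were tested on simulated data. P-values measure the spread between pools, which may be technical. The number of arrays limits the precision.

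Members, gene lists and tests were chosen with earlier results of these data known. Named genes were the 10 smallest p-values in each direction, up to 4 members of each list under 0.05, for lists without such a member the smallest p, and Csnk1e. Alternatives were quantile normalization, median centring, other filters and probe set rules, trend and robust eBayes, array weights, chip lot, mean age, replicate blocks, the array axis, and leaving out arrays. With chip lot as a covariate, the lot that held only LMACT methamphetamine replicate 4 was joined with another lot. The axis projected on all arrays as a covariate, the "array axis" setting, and a mean over 4 were chosen after seeing the data.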

Additional observations from a re-analysis of the deposited data

Results flagged for a closer look

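A sample stood far from the others of its group in 21 of 160 gene and group combinations tested, over 16 of 40 named genes; chance flags about 8. In HMACT after saline, replicate 1 was low for Rps3 (12.17) and high for Hdac7 (4.71). Without this array the interactions of Smim20, Psmb7, Psma6 and Rpl37a were 1.40, 0.39, 0.26 and 0.73. With all arrays they were 1.73, 0.50, 0.34 and 0.93. For each of these genes, as for Rps3, this was the lowest value when single arrays were left out. In HMACT after methamphetamine, replicate 1 was high for 1810009A15Rik (7.47), replicate 6 for Plk3 (8.03), and replicate 3 for Pagr1a (5.92) and Igfbp2 (3.86) and low for Rac1 (12.02).

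In LMACT after saline, replicate 2 was high for Dkk3 (6.88), replicate 3 for 1810009A15Rik (7.57), replicate 4 for Pdia4 (3.33), replicate 5 for Plk3 (8.20) and replicate 6 for Hdac7 (4.33), and replicate 5 was low for Dnajb1 (5.52). In LMACT after methamphetamine, replicate 5 was low for Smim20 (6.05), Sgk1 (9.45) and Csnk1e (6.92) and high for Rpl37a (10.62). Replicate 4 was high for Pagr1a (6.14), Egr1 (10.68) and Igfbp2 (3.50), and replicate 3 for Psmb7 (9.57). LMACT methamphetamine replicate 5, with 4 of these values, was also the array with the widest gap between 3′ and 5′ controls. HMACT methamphetamine replicate 3 and LMACT methamphetamine replicate 4, with 3 each, are among the 4 arrays that stood apart.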

How the results depend on the processing

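The number of genes past the adjusted threshold was 0 in every setting tried except 1. With the first axis of the residuals as a covariate it was 512, and 1316 genes were under an unadjusted p of 0.05. By construction that covariate is orthogonal to the groups: it leaves each interaction nearly unchanged and takes variance from the error alone, so differences along the axis stay in the group means. With the axis projected on all arrays instead, chosen after seeing the data, 0 passed and 227 were under 0.05. The count of 206 under 0.05 went to 738 with array weights, 649 in pools under 100 days and 67 in the largest chip lot, of which 119 of the 649 and 16 of the 67 were among the 206. Replicate numbers were not taken as pairs in the main fit, since no label states a pairing. Same-numbered pools of a line did share a chip lot, except replicate 4 of LMACT. Replicates 1, 2 and 4 of HMACT also had the same mean age after both injections. The residual correlation of same-numbered pools within a line was over 0.1 for 8 of 11 pairs, with a range of -0.618 to 0.876. The main fit therefore leaves out any matching of these pools. With a fixed replicate block 0 passed and 380 were under 0.05, and with a random one 0 and 387. Leaving out each array gave 0 to 0 past the threshold and 106 (without LMACT methamphetamine replicate 4) to 732 (without HMACT methamphetamine replicate 3) under 0.05. The causes were not tested. Each of the 206 kept its direction in every setting in which it was tested. As the 206 were picked on most of the same arrays, this is a description and no further support. Csnk1e turned to 0.069 in the largest lot, 0.13 under 100 days, 0.16 without the 4 arrays and 0.057 with the projected axis, and ran from -0.38 (without LMACT methamphetamine replicate 5) to 0.057 (without HMACT saline replicate 3) when arrays were left out. The 2943 genes at or near the floor were left out of the main test, and no interaction is reported for them. When all 8251 named genes were tested, 0 passed and 216 were under 0.05.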
